A study of Zea mays with 12 samples.

Results

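The 100 genes described here are those whose transcript levels were most lowered in shoot apices of maize tml1;tml2 mutants, relative to segregating wild types. They were selected on the measured values themselves. TPM (transcripts per 1000000 transcripts) was averaged over the 2 sequencing runs of each sample, and 8 listed IDs that the selection sets aside were dropped. A gene had to reach a wild-type mean of at least 2 TPM, which 19444 of the 39324 IDs in the table did. It also had to have all 3 mutant values below all 3 wild-type values, which 1135 genes did (5.84% of the 19444). These were ranked by the log2 ratio of the wild-type mean to the mutant mean, with 0.5 TPM added to each, and the first 100 were taken. Because this contrast chose the genes, its values for them are given as a description with no test.

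TOO MANY LATERALS genes are named for a mutant phenotype in the vein pattern of the grass leaf. A maize leaf carries large lateral veins, which form early and run into the sheath, and smaller intermediate veins between them in the blade. The close vein spacing of leaves with C4 photosynthesis is laid down in young primordia around the shoot apical meristem, where leaves arise, and that tissue was sampled here.

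RNA was measured by strand-specific sequencing with paired reads in 6 biological samples of the inbred line B104, 3 of each genotype, numbered 2, 3 and 4 in the labels. The mutants were homozygous for loss-of-function alleles of both tml1 and tml2 made by CRISPR/Cas9 editing, in plants where the editing transgene segregated independently. The wild types segregated in the same material, and seeds of both genotypes were picked by genotyping before germination. Seedlings of both genotypes were grown for 7 days in vermiculite, and the dissected tissue held the meristem, the primordia from plastochron 0 to 5 (numbered from the youngest) and leaf sheath, without root, embryo or coleoptile. The labels do not settle whether a sample is 1 apex or a pool of several, and they do not state how many edited lines the mutants came from. The gene IDs are version 4 gene models per the file header. None of them (0) was found among the 49888 genes of the reference table, which is built for another assembly, so genes are called by ID and no function is given. For the same reason tml1, tml2 and markers of the apex are not analysed here, and genotype and tissue rest on the labels.

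Sample totals were 27213052 to 31980536 estimated counts, which makes 3 counts worth 0.0938 to 0.110 per 1000000 counts (CPM), a limit that covers counting error alone. The samples did not separate cleanly by genotype. On the first principal component of all genes, which held 46% of the variance, wild types 2 and 4 were at -84 and -64.5, mutant 2 at -3.21, wild type 3 at 9.88, mutant 3 at 26.2 and mutant 4 at 116. Mutant 4 therefore stood at one end and wild type 3 lay between mutants 2 and 3, and both samples are named below wherever a value rests on them.

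The 100 genes spanned a wide range of abundance. Their wild-type means ran from 2.06 to 5227 TPM, with a median of 11.7 and quartiles of 5.37 and 45.1. Their mutant means ran from 0.0495 to 1005 TPM, with a median of 3.28. Low-level genes were frequent, since 44 had a wild-type mean under 10 TPM against 34.9% of the 19444 expressed genes. Abundant genes were frequent too, since 20 reached at least 100 TPM against 8.78% of expressed genes. In bulk tissue, fewer cells of a type and less RNA of a gene per cell cannot be told apart.

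Log2 ratios of wild type to mutant ran from 1.30 to 3.72, with a median of 1.58 and quartiles of 1.41 and 1.91. On a linear scale without the added 0.5 TPM, the median ratio of means was 3.47. Over all 19444 expressed genes the median log2 ratio was -0.12, so the typical gene was slightly higher in the mutants in TPM. With TMM-scaled CPM that median was 0.02, and with median-of-ratios scaled counts 0.03. In TPM the selection required all 100 genes to be lower in the mutants without overlap. Under the other scalings, which rest on the same samples, all 100 were so too. Relative to all expressed genes, their median log2 ratio was 1.70 in TPM and 1.58 under each of the others.

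**Figure D1:**
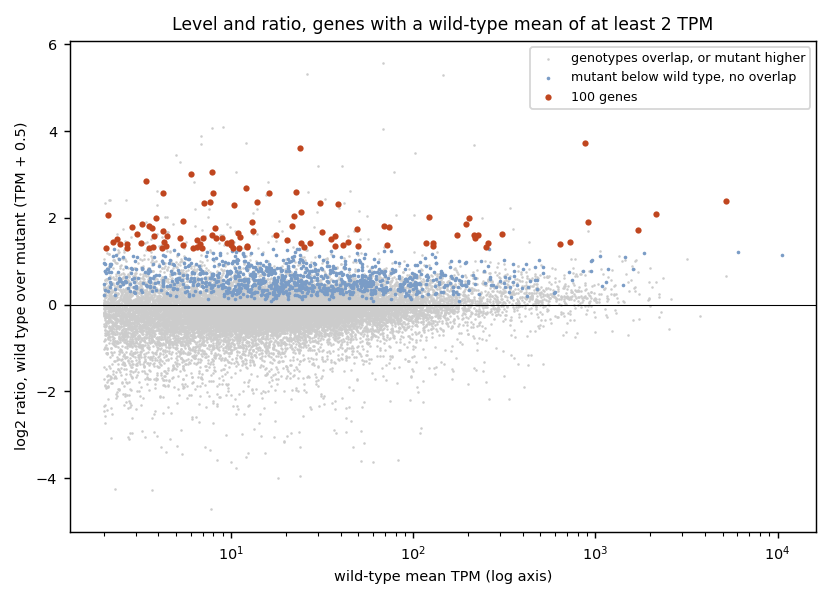
Log2 ratio of wild type to mutant (TPM + 0.5, vertical axis) against the wild-type mean TPM (horizontal log axis) for 19444 expressed genes. Grey points are genes whose genotypes overlap or that are higher in the mutant, blue points are genes with all mutant values below all wild-type values, and the 100 orange points are those of them with the highest ratios, from 1.30 to 3.72. Grey points at the same height as the orange ones are genes with as high a ratio but overlapping genotypes.

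The requirement of no overlap left out many genes with as high a ratio. A log2 ratio of at least that of rank 100 was reached by 198 expressed genes, of which 98 had overlapping genotypes and were left out. Wild type 3 was the highest wild type in 64 of those 98, wild type 2 in 24 and wild type 4 in 10. The ratio alone would have taken 60 genes with overlap into its first 100. At the lower end of the list the values change little from one rank to the next. Rank 99, Zm00001d004497, had 11.5, 9.98 and 11.9 TPM in wild types 2, 3 and 4 and 5.32, 5.57 and 1.74 in mutants 2, 3 and 4. Rank 100, Zm00001d038870, had 2.25, 6.49 and 1.86 TPM in the wild types and 1.12, 1.32 and 0.973 in the mutants. Both had a log2 ratio of 1.30, which for Zm00001d038870 was 0.64 without wild type 3, and just outside stood Zm00001d044980 and Zm00001d000107, each at 1.29.

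The fit across all genes is given beside the list for reference, since the list was selected on the same contrast and nothing is read from these counts. The quasi-likelihood test of edgeR called 0 of 22772 genes lower at an adjusted p under 0.05, which is 0.0%, and 0 of the 95 listed genes that were tested. The lowest adjusted p it gave was 0.271. Without adjustment, p under 0.05 was found for 1209 genes lower in the mutants (5.31%), including 77 of those 95, and for 1575 higher. DESeq2 called 196 of 24085 genes lower at an adjusted p under 0.05 (0.814%), including 51 of the 99 listed genes it gave a value. An exact permutation test of a single gene with 3 samples against 3 cannot give a two-sided p below 0.1.

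The first-ranked gene, Zm00001d048660, had 436, 2046 and 137 TPM in wild types 2, 3 and 4 and 52.2, 57.1 and 87.6 TPM in mutants 2, 3 and 4. The mutants were close to each other and the wild types were spread over more than a factor of 10, with wild type 3 far above the rest. The means were 873 ± 1027 TPM in the wild types and 65.7 ± 19.2 in the mutants (SD, n = 3 each), a log2 ratio of 3.72 that was 2.12 without wild type 3. Its listed average transcript length was only 164 bases.

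Zm00001d004380, of rank 2, had 36.0, 12.7 and 22.9 TPM in the wild types and 1.11, 2.87 and 0.534 in the mutants. Its lowest wild type lay well above its highest mutant, and on the log2(TPM + 0.5) scale that gap of 1.97 was the widest of any expressed gene. The means were 23.9 ± 11.7 and 1.5 ± 1.22 TPM (SD, n = 3 each), with a log2 ratio of 3.60. Leaving out wild type 2 gave a ratio of 3.19, leaving out wild type 3 gave 3.90, and leaving out mutant 4 gave 3.29.

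Zm00001d010373 and Zm00001d031934 had the next widest gaps, 1.96 and 1.90. The former had 14.4, 10.5 and 11.5 TPM in the wild types and 1.18, 2.34 and 0.830 in the mutants, a log2 ratio of 2.70. For Zm00001d031934 the values were 27.0, 16.4 and 24.5 TPM in the wild types and 3.21, 4.02 and 2.82 in the mutants, a log2 ratio of 2.59. In both genes wild type 3 was the lowest wild type and mutant 4 the lowest mutant, and without mutant 4 their log2 ratios were 2.48 and 2.49.

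Zm00001d036465 was the tightest of the first 12 among the wild types, with 17.3, 14.4 and 16.5 TPM. Its mutants had 4.27, 0 and 2.58 TPM. The mutants therefore disagreed, with 38, 0 and 22 estimated counts behind those values, and still lay below every wild type by a gap of 1.65. Its log2 ratio was 2.58.

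Zm00001d033024, Zm00001d053288 and Zm00001d007290 were spread among the wild types and low in every mutant. Zm00001d033024 had 13.9, 7.07 and 2.5 TPM in the wild types and 0.277, 0.681 and 0.560 in the mutants, a log2 ratio of 3.05. Zm00001d053288 had 6.28, 2.04 and 9.89 TPM in the wild types and 0, 0.706 and 0.227 in the mutants, a log2 ratio of 3.02. Zm00001d007290 had 7.79, 2.69 and 13.5 TPM in the wild types and 0.734, 1.71 and 0.339 in the mutants, a log2 ratio of 2.57. In the latter 2 genes wild type 3 was the lowest wild type and mutant 3 the highest mutant, so these samples set the width of the gap.

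**Figure D2:**
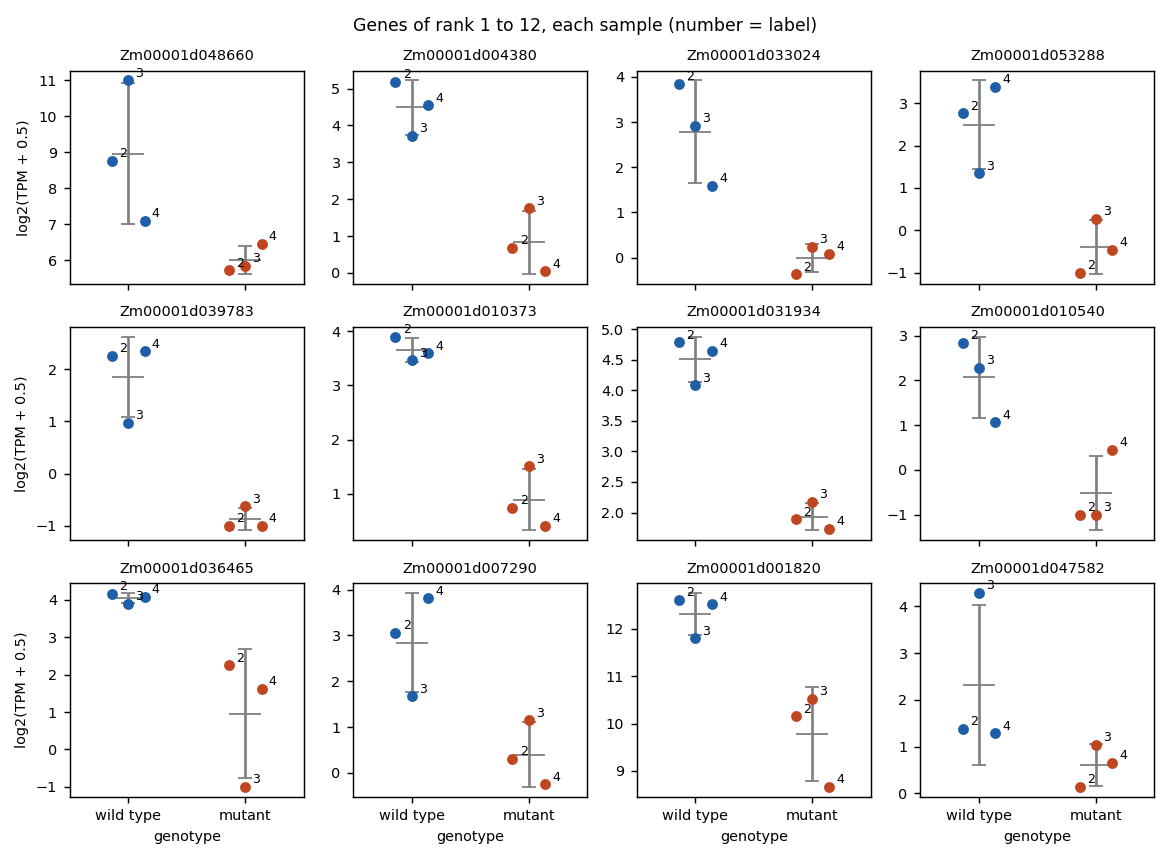
Level of the 12 first-ranked genes in each sample, as log2(TPM + 0.5), with a scale of its own for each gene. Points are samples, marked with the number of their label, wild types in blue and mutants in orange; the long horizontal line is the mean of the 3 log2 values and the bar 1 SD. No gene overlaps between genotypes, which the selection required, and the wild types of Zm00001d048660 and Zm00001d047582 are spread upward by sample 3 (2046 and 19.0 TPM).

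The 6 most abundant genes of the list include Zm00001d048660, described above, and lie otherwise at rank 11 or below. Zm00001d001820, of rank 11, had 6275, 3562 and 5845 TPM in the wild types and 1136, 1473 and 405 in the mutants. Its log2 ratio was 2.38, from means of 5227 ± 1458 and 1005 ± 546 TPM (SD, n = 3 each), and at least 12646 estimated counts lay behind each sample's value. Zm00001d004346 had 2953, 1071 and 2463 TPM in the wild types and 551, 834 and 147 in the mutants, a log2 ratio of 2.08. In both genes wild type 3 was the lowest wild type and mutant 4 the lowest mutant.

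Zm00001d004342 had 2091, 1435 and 1588 TPM in the wild types and 558, 716 and 281 in the mutants, a log2 ratio of 1.72. Zm00001d002094 had 814, 445 and 928 TPM in the wild types and 418, 332 and 57.7 in the mutants, a log2 ratio of 1.44. It nearly overlapped, with a gap of 0.09, and without mutant 4 its log2 ratio was 0.96. Zm00001d042540 ran the other way among samples, with 761, 1458 and 532 TPM in the wild types and 241, 184 and 306 in the mutants, so that wild type 3 was its highest and mutant 4 its highest mutant. Its log2 ratio was 1.91.

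The transcripts of the 100 genes together held 1.82%, 1.44% and 1.63% of the listed TPM in wild types 2, 3 and 4 and 0.476%, 0.564% and 0.202% in mutants 2, 3 and 4. The 4 most abundant genes held 62.5% of the summed wild-type means. Without these 4 the sums were 5833, 6601 and 5591 TPM in the wild types and 2175, 2321 and 835 in the mutants. Mutant 4 was the lowest, and that every mutant sum lay below every wild-type sum was fixed by the selection. The median gene had 12, 10.1 and 11.9 TPM in the wild types and 4.03, 3.99 and 1.56 in the mutants.

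Few of the genes were switched off by the measure used here. Below 0.5 TPM in every mutant were 2 of the 100 genes, where the 19444 expressed genes held 13 such genes (0.0669%), and the selection on low mutant values used the same contrast. At a limit of 1 TPM the count was 11, against 28 of the expressed genes (0.144%). No gene of the list (0 of 100) had 0 counts in every mutant. Of the expressed genes 6 did (0.0309%), and the condition of no overlap left all of them out. In at least 1 mutant 0 counts were found for 10 genes, against 98 of the expressed genes (0.504%). Of the 10, 4 had 0 counts in mutant 2, 2 in mutant 3 and 7 in mutant 4.

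Zm00001d039783 was the clearest of the low cases. It had 4.28, 1.47 and 4.57 TPM in the wild types and 0, 0.149 and 0 in the mutants. These values rest on 33, 11 and 37 counts in the wild types and 1 count in mutant 3, a count ratio of 77.1 after scaling for depth (exact 95% interval 13.5 to 3084). Such an interval, here and below, gives only the counting error of few reads pooled over samples, and it is no test of a gene that was selected for this difference. Zm00001d007057, named after its values were seen, was the other gene under 0.5 TPM, with 1.59, 2.20 and 2.59 TPM in the wild types and 0, 0.376 and 0 in the mutants. Its 36 wild-type counts against 2 gave a count ratio of 17.1 (exact 95% interval 4.41 to 147).

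Zm00001d010540, of rank 8, shows how far a high rank can rest on few reads. It had 6.69, 4.38 and 1.59 TPM in the wild types and 0, 0 and 0.862 in the mutants, from 8, 5 and 2 counts against 1 count. The count ratio was 14.3, with an exact 95% interval of 2.20 to 601. The listed length of this gene was 39.8 bases, so that a single count weighed much in TPM.

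Short and thinly covered genes were more frequent in the list than among expressed genes. A listed length under 200 bases was found for 14 of the 100 genes and for 3.91% of expressed genes. Fewer than 100 counts over all 6 samples were found for 7 of the 100 and for 1.28% of expressed genes. The median listed length was 909 bases against 1282 for expressed genes. The listed length is the deposited average for a gene, goes as low as 1.87 bases over the table, and is not the full length of the transcript. At the other end, the most deeply covered gene held 637929 counts, and the median gene held 1092.5.

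The separation between genotypes varied widely over the list. The gap between the lowest wild type and the highest mutant, on the log2(TPM + 0.5) scale, had a median of 0.58 and ran from 4.24e-06 to 1.97. It was over 1, which is 2-fold, in 16 genes, and these were the only ones of the 19444 expressed genes to reach it. It was under 0.25 in 23 genes, the narrowest separations of the list. In the first runs alone 86 of the 100 genes were lower without overlap, against 5.53% of expressed genes and 76.6% of the 1135 genes without overlap in the averages. In the second runs alone 90 were, against 5.9% and 78.3%. All 6 mutant runs lay below all 6 wild-type runs in 73, against 3.0% and 51.5%, and as the runs belong to the samples that chose the list, nothing is read from these counts. The median absolute log2 difference between the 2 runs of a sample was 0.15 for these genes and 0.09 for expressed genes.

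**Figure D3:**
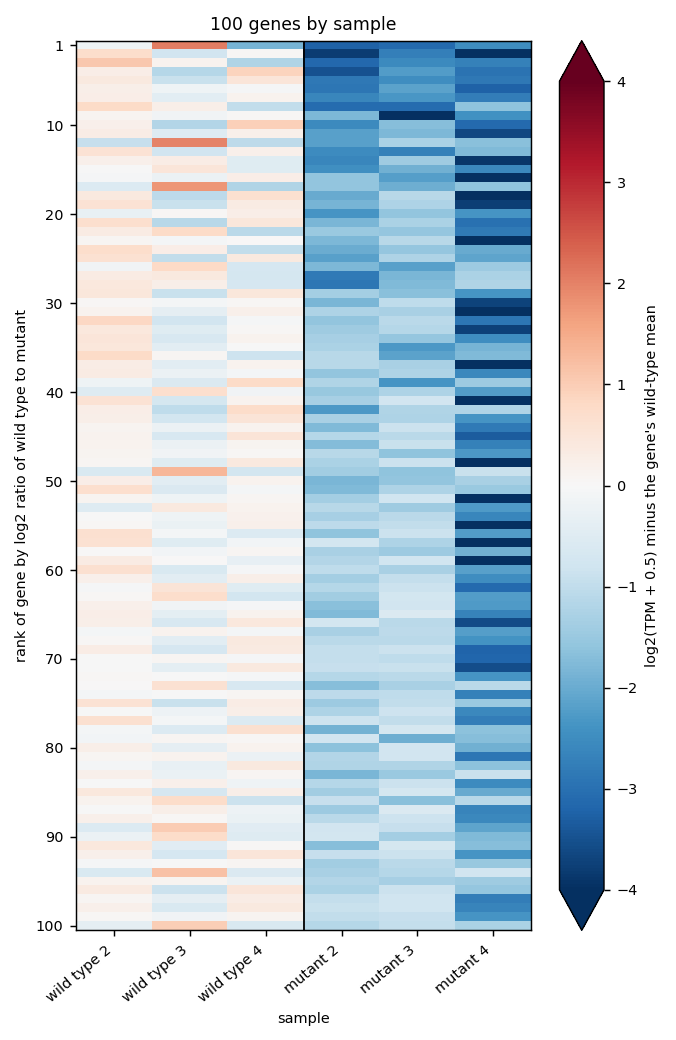
Level of each of the 100 genes (1 line each, by rank) in the 6 samples. Values are log2(TPM + 0.5) minus the gene's mean log2(TPM + 0.5) over the wild types. Red is above and blue below that mean, and differences beyond 4 are drawn at 4. Every line is bluer in the mutants, which the selection required; mutant 4 is the darkest column in 72 genes, and a few lines are red in wild type 3.

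Samples of 1 genotype differed more in these genes than in others. The within-genotype SD of log2(TPM + 0.5) had a median of 0.51 among wild types and 0.73 among mutants. Expressed genes had 0.24 and 0.29, and the genes without overlap had 0.17 and 0.31. Ranking by the ratio of means can favour genes with 1 extreme sample, so this wider spread is not read as a trait of the listed genes. The deviations from the genotype means moved largely together, with 67.5% of their variance on 1 component. Its loadings were -0.78 for mutant 4, 0.48 for mutant 3 and 0.30 for mutant 2, and -0.23, 0.12 and 0.11 for wild types 3, 2 and 4. The second component held 19.7% and set wild type 3 (0.76) against wild type 4 (-0.55). Low mutant 4 and, less strongly, low wild type 3 thus moved together over the list.

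Mutant 4 was the lowest mutant in 72 of the 100 genes, as it was in 74.4% of the 1135 genes without overlap and 35.0% of expressed genes. Mutant 3 was the highest mutant in 64, against 55.8% of the genes without overlap and 26.4% of expressed genes. Wild type 3 was the lowest wild type in 61, against 50.7% of the genes without overlap and 26.6% of expressed genes. Mutant 4 and wild type 3 were both the lowest of their genotype in 48 genes, against 40.9% of the genes without overlap and 15.9% of expressed genes. The first component of all genes was turned so that mutants score higher on it. Selecting genes with every mutant below every wild type therefore favours a negative r with it, and the r is given as a description. The 100 genes had a median Pearson r of -0.84 with that component over the 6 samples. It was below -0.8 in 60 of them, close to the 57.4% of genes without overlap, and in 10.4% of expressed genes. The part of that component in the genotype difference was not tested.

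**Figure D4:**
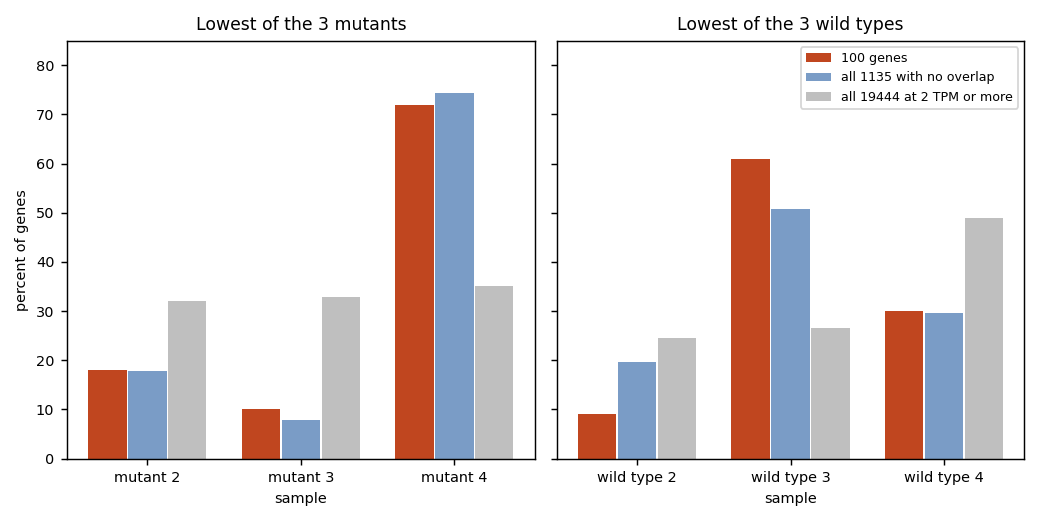
Percent of genes in which each mutant (left) or each wild type (right) is the lowest of its genotype, for the 100 genes, for all 1135 genes without overlap and for all 19444 expressed genes. Mutant 4 is the lowest mutant in 72% of the 100 genes and wild type 3 the lowest wild type in 61%. The shares are 35.0% and 26.6% of expressed genes, and 74.4% and 50.7% of genes without overlap.

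The genes could be divided by which sample stood apart within its genotype, a division made after the values were seen. In 43 genes mutant 4, with 0.5 TPM added, lay below 0.5 times the next mutant, where 2.72% of expressed genes and 12.2% of genes without overlap did. Their median levels were 37.0, 32.6 and 32.4 TPM in wild types 2, 3 and 4 and 13.8, 17 and 1.88 in mutants 2, 3 and 4. The median log2 ratio of these genes was 1.54, and without mutant 4 it was 1.09, with none below 0.90. That mutants 2 and 3 were lower too, and mutant 4 the lowest, was fixed by how these genes were chosen.

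In 7 genes wild type 3 was more than 2 times both other wild types, as it was in 5.15% of expressed genes and 1.06% of genes without overlap. Their median levels were 4.46, 24.0 and 2.62 TPM in the wild types and 1.93, 1.56 and 1.86 in the mutants. Without wild type 3 their median log2 ratio fell from 1.60 to 0.64. Beside Zm00001d048660 and Zm00001d038870 they included Zm00001d047582, which had 2.10, 19.0 and 1.93 TPM in the wild types and 0.599, 1.56 and 1.07 in the mutants. Its log2 ratio of 2.37 was 0.67 without wild type 3, which places the ratio almost wholly in 1 sample. The remaining 4, named after their values were seen, were Zm00001d008764, Zm00001d019698, Zm00001d017366 and Zm00001d020605, the last of which also met the condition on mutant 4.

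The other 51 genes met neither condition. Their median wild-type mean was 7.00 TPM, against 35.3 TPM for the 43 genes low in mutant 4. With 0.5 TPM added, the condition on mutant 4 cannot be met unless mutants 2 and 3 both exceed 0.5 TPM. The difference in abundance therefore follows in part from the definition. Median levels of the 51 genes were 7.79, 4.85 and 6.88 TPM in the wild types and 1.38, 1.88 and 1.11 in the mutants. Their median log2 ratio was 1.61, and it was 1.56 without mutant 4 and 1.73 without wild type 3. That it moved little without mutant 4 also follows in part from the definition. Of the 16 genes with a gap over 2-fold, 12 were among these 51.

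For the whole list, the median log2 ratio was 1.31 without mutant 4 and between 1.53 and 1.86 when any other sample was left out. No gene fell below 0.90 without mutant 4. Without wild type 3 the lowest was 0.46.

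The gene IDs carry running numbers, and some of the 100 genes had numbers close to each other. A second gene of the list lay within 10 ID numbers for 14 genes, in 7 pairs, and 4 of these pairs were directly adjacent. Within 50 numbers there were 30 genes in 14 groups. How many such neighbours 100 other expressed genes would hold is not given here. Closeness by number is therefore not read as a trait of the list. Positions on the genome were not used here, and whether paired genes are near-identical copies that share reads was not tested.

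The adjacent genes Zm00001d002093 and Zm00001d002094 differed in level and had nearly the same order of samples. The former had 59.0, 35.8 and 53.0 TPM in the wild types and 21.9, 19.5 and 1.75 in the mutants, at a log2 ratio of 1.74. Over the 6 samples the pair had a Pearson r of 0.99 on the log2 scale, and of 0.98 for the deviations from the genotype means. Mutant 4 was the lowest sample of both. Here and below, selecting each gene of a pair for low mutant values raises the r over the samples. The r within genotypes also carries the course shared over the list. No r of listed genes far apart by number is given beside these values.

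Zm00001d020307 and Zm00001d020308 followed the same course. Zm00001d020307 had 26.7, 28.3 and 26.2 TPM in the wild types and 13.8, 13.1 and 2.56 in the mutants. Zm00001d020308 had 43.5, 35.1 and 27.3 TPM in the wild types and 15.0, 19.6 and 1.26 in the mutants. Both were reduced about alike in mutants 2 and 3 and much further in mutant 4, with log2 ratios of 1.42 and 1.52 that were 0.98 and 1.01 without that sample. Their r was 0.98 over the samples and 0.98 within genotypes.

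The pair of Zm00001d024885 and Zm00001d024886 differed within the mutants. Zm00001d024885 had 29.8, 42.1 and 21.0 TPM in the wild types and 5.03, 7.57 and 4.62 in the mutants, a log2 ratio of 2.34. Zm00001d024886 had 247, 219 and 117 TPM in the wild types and 24.4, 53.7 and 80.6 in the mutants, a log2 ratio of 1.87. Mutant 4 was the lowest mutant of the first gene and the highest of the second. Their r was 0.87 over the samples and 0.36 within genotypes.

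Zm00001d046490 had 31.1, 8.65 and 26.7 TPM in the wild types and 5.11, 7.86 and 2.01 in the mutants, a log2 ratio of 2.04. Its neighbour Zm00001d046491 was lower throughout, with 3.71, 1.28 and 2.09 TPM in the wild types and 0.815, 0.602 and 0.0900 in the mutants, a log2 ratio of 1.51. In both, wild type 3 was the lowest wild type and set the gap, which was 0.13 and 0.43. Their r was 0.96 over the samples and 0.87 within genotypes.

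Zm00001d039837 and Zm00001d039840, 3 numbers apart, stood at very different levels. Zm00001d039837 had 216, 193 and 246 TPM in the wild types and 85.2, 103 and 34.8 in the mutants, a log2 ratio of 1.54. Zm00001d039840 had 8.02, 8.57 and 4.81 TPM in the wild types and 0.731, 2.29 and 0 in the mutants, a log2 ratio of 2.34. In each of them mutant 3 was the highest mutant and mutant 4 the lowest. Their r was 0.95 over the samples and 0.82 within genotypes.

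The abundant genes Zm00001d004342 and Zm00001d004346 are 4 numbers apart, with an r of 0.97 over the samples and 0.95 within genotypes. Between and beside them lay expressed genes of high ratio that were left out of the list because their genotypes overlapped, and which are named after their values were seen. Zm00001d004348 had 1472, 297 and 964 TPM in the wild types and 240, 494 and 114 in the mutants, so that wild type 3 lay below mutant 3, and its log2 ratio was 1.69. Zm00001d004344 had 20.6 TPM in wild type 2 and was listed at 0 in the other 5 samples. The last pair was Zm00001d038863, also named after its values were seen, and Zm00001d038870, 7 numbers apart, with an r of 0.87 over the samples and 0.71 within genotypes.

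**Figure D5:**
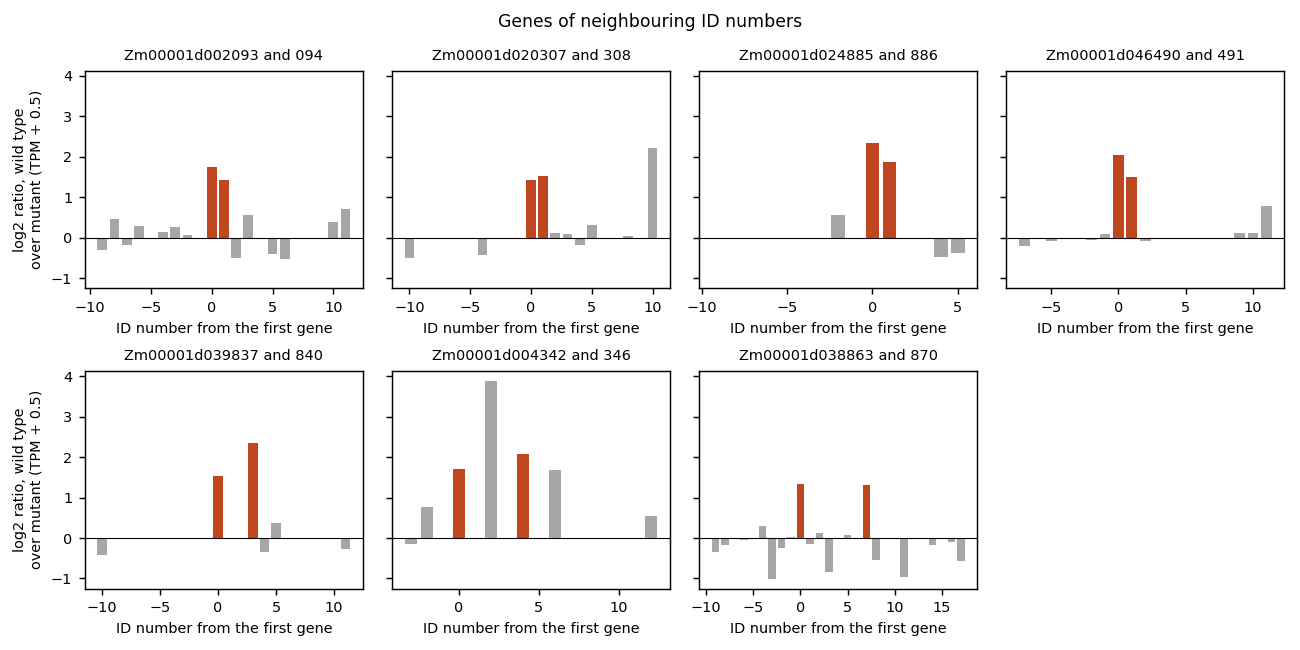
Log2 ratio of wild type to mutant (TPM + 0.5) of expressed genes within 10 ID numbers of the 7 pairs, by ID number counted from the first gene of the pair. Orange bars are genes of the list and grey bars other genes with a wild-type mean of at least 2 TPM; gaps are numbers with no such gene. Of the 59 grey bars 27 are above 0, and the tallest are Zm00001d004344 (3.88), Zm00001d020317 (2.21) and Zm00001d004348 (1.69), which are named after their values were seen and whose genotypes overlap.

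Genes outside the list that stood close to it by number were counted as well. Within 10 ID numbers of a listed gene stood 732 other expressed genes, of which 36 were lower in the mutants without overlap (4.92%, against 5.84% of all expressed genes) and 93 were higher without overlap (12.7%, against 15.7%). Their median log2 ratio was -0.09. The 84 directly adjacent genes held 2 lower ones (2.38%) and 9 higher ones (10.7%), at a median of -0.05. Around the 7 pairs, 27 of 59 other expressed genes had a ratio above 0, against 36.8% of all expressed genes.

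The 3 genes whose pattern was most like that of Zm00001d048660, by Pearson correlation of log2(TPM + 0.5) over the 6 samples among expressed genes, were Zm00001d017953 (r of 0.99), Zm00001d046909 (0.99) and Zm00001d020861 (0.99). None of them is in the list. Zm00001d017953 had 22.6, 32.1 and 18.2 TPM in the wild types and 15.4, 17 and 17 in the mutants. In each of the 3 genes wild type 3 was the highest sample and wild type 2 the next, over a much smaller range than in Zm00001d048660.

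The authors' deposited table of transcripts past an adjusted p of 0.05 lists 95 of the 100 genes, where it lists 28.4% of expressed genes. The same libraries lie behind it and behind the selection, so it is no independent evidence. Of the transcripts in the authors' deposited table, 91.2% have the opposite sign to the change of mutant over wild type computed here for their gene, so its values are read as wild type over mutant. All 111 transcripts of the listed genes in the authors' deposited table are positive in that sense. The log2 fold change in the authors' deposited table is 4.15 for Zm00001d004380 (standard error 0.512) and 3.84 for Zm00001d048660 (standard error 0.594). The mean normalized signal given there for Zm00001d004380 is 184, where its counts summed to 2061 in the wild types and 116 in the mutants. That is about a mean over 12 runs, not over 6 samples. The runs of a sample thus seem to have entered as separate replicates. The standard errors and adjusted p-values are therefore not read as measures of biological spread. For Zm00001d001820 the authors' deposited table lists 2 transcripts, with log2 fold changes of 2.54 and 2.53.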

How the data were processed

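Per the submitters' processing notes, STAR, Salmon and DESeq2 were used, and these notes state no version, role or setting for them. The authors deposited, for each gene and each of 12 runs, TPM, estimated counts that need not be whole, and the average transcript length in bases. Their second table, per the file headers, holds for each transcript a mean normalized signal, a log2 fold change, its standard error, a Wald score, a p-value and an adjusted p-value, of which the log2 fold change and its error were used here.

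TPM was averaged over the 2 runs of a sample, and ratios use a pseudocount of 0.5. Counts of the runs were summed and rounded for edgeR 4.0.16 in R 4.3.3 (quasi-likelihood test, TMM, edgeR's expression filter, Benjamini-Hochberg adjustment over all genes tested, no covariates) and for DESeq2 1.42.0. The lowest median chi-square per gene between any pair of samples was 6.09, where counting noise gives 0.455, so none is a duplicate. The edgeR and DESeq2 fits were tested on simulated counts with planted changes.

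The genes and the rules were chosen with earlier results of these data known. Named are ranks 1 to 12 and 99 to 102, the 6 most abundant genes, the 5 with the widest gap and the 6 closest neighbour groups, with the 3 genes most like the first; other names are marked in the text. The labels call the 3 samples of a genotype biological replicates. Columns left unused numbered 0, and no sequences were used here.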

Additional observations from a re-analysis of the deposited data

How the results depend on the processing

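Of the 100 genes, 40 remained when overlap was allowed, and leaving out 1 sample kept between 63 (without mutant 3) and 80 (without wild type 2); 64 remained without wild type 3 and 64 without mutant 4. Other settings kept 72 to 96: pseudocounts of 1 and 0.1 kept 87 and 96, the runs alone 76 and 72, wild-type minimums of 1 and 5 TPM kept 91 and 76, no minimum 89, TMM-scaled CPM and median-of-ratios scaling 81 each, and, chosen after seeing the data, a minimum of 100 counts 93 and medians in place of means 77. The number of genes meeting the conditions was 1135, and 1893 and 1994 under the 2 count scalings. With fewer samples to separate, every omission raised this number. The rise was smallest on dropping mutant 4, to 1376 genes, and then on dropping wild type 2, to 1387. Dropping wild type 4 gave 1832 genes, and dropping mutant 3 gave 2309. The largest numbers were 2341, on dropping mutant 2, and 2405, on dropping wild type 3. DESeq2 called 660 genes in both directions and 428 without mutant 4, the latter chosen after seeing the data, while edgeR called 0 under the settings tried, each sample left out included (0 to 0), and limma on log2 TPM of all samples called 0. The replicate numbers do not pair the samples, whose same-numbered deviations correlated at 0.216, -0.268 and -0.176; with them as a replicate block edgeR called 0 genes, at a lowest adjusted p of 0.532 and with 1790 genes at an unadjusted p under 0.05. Genes below the limit in every mutant numbered 0 at 0.1 TPM, 11 at 1 TPM, 0 by counts, and 2 to 6 with 1 sample left out (6 without mutant 3, 4 without mutant 4). Genes with a listed neighbour numbered 8 within 1 ID number and 30 within 50. Of 297 ratios of the 27 named genes under 11 alternatives, 288 moved by less than the spread between replicates. That spread is the gene's own pooled within-genotype SD, which an outlying sample widens. The other 9 moved by more, and 0 changed sign. Among these, under TMM-scaled CPM, Zm00001d010540 went from 2.58 to 0.39 and Zm00001d039783 from 2.84 to 1.47. The cause of each move was not tested. No sign could change when 1 sample was left out or another pseudocount was used, since the selection put every mutant below every wild type. The median log2 ratio of the list stayed between 1.31 and 1.86 under the settings tried. Depth limits the genes under 100 counts most.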
